A study of Mus musculus with 22 samples.

Results

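The planar cell polarity genes Celsr1, Celsr2, Celsr3, Vangl1, Vangl2, Fzd3, Fzd6, Dvl1, Prickle1 and Prickle2 were described by DNA methylation in 22 mouse forebrains. CpGs were taken from 5 kb upstream to 1 kb past each gene of the RefSeq annotation of GRCm38 and grouped into tiles of 100 bp. A CpG strand counted where 10 or more reads covered it, and a tile was analysed if it held 2 or more such CpGs in at least 5 samples of each condition. This gave 136 of the 114430 tiles analysed on chromosomes 1 to 19, with 31 tiles in Celsr1, 19 each in Celsr2, Celsr3 and Prickle1, 11 in Vangl1, 10 in Vangl2, 8 each in Fzd6 and Prickle2, 6 in Fzd3 and 5 in Dvl1. The windows held 11393 CpGs, of which 740 had a value in at least 5 samples of each condition and 196 in all 22 samples, so most of each gene was not measured. The level of a tile in a library pools whichever of its CpGs had enough reads there, and in 91 of the 136 tiles these CpGs were not the same in every library. No analysed tile lay inside another gene.

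All embryos were wild-type C57BL/6 mice collected at embryonic day (E) 10.5. The 6 control embryos came from dams injected with saline, and the 16 EtOH-exposed embryos from dams given 2 injections of ethanol at 2.5 g/kg, 2 h apart, at E2.5, before implantation. By the study's methods the controls came from 3 litters and the EtOH-exposed embryos from 6, and each library is 1 forebrain. The labels do not tie embryos to litters, so every test below takes embryos as independent, and litter and exposure cannot be told apart. By the same methods each group held males and females in equal number, and the sexes were not separated here. DNA was cut with MspI, which cuts at CCGG, and read by reduced representation bisulfite sequencing, in which the methylation level of a CpG is the percent of reads that keep a cytosine. A methylation table holds no expression markers, so the labelled tissue was not checked here.

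Planar cell polarity is the alignment of cells within the plane of a tissue. It is set by a core complex at cell borders, in which atypical cadherins of the Celsr family bind across the border, Frizzled receptors with Dishevelled proteins gather on one side of the cell, and Vangl proteins with Prickle gather on the other. In the embryo this system is known for closure of the neural tube, and in the forebrain for the guidance of axon tracts and the migration of neurons.

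The sequences that follow are tiles named below for a call, a place beside a called tile or a wide spread. They are 3 Celsr1 tiles that were called or stood beside a called tile, and the tile of the largest spread among EtOH-exposed embryos outside the promoter in Celsr1, Celsr2 and Vangl1. The tiles taken for their spread were not called. They are the top strand of GRCm38, read 5′ to 3′, and capitals mark the CpGs that had a value in at least 5 samples of each condition. Where the capitals stand in ccgg, the CpG lies in the cut site itself.

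Celsr1 intron 5, chr15:85947801-85947900: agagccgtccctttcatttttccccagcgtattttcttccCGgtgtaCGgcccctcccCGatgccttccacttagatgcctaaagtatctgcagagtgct
Celsr1 intron 5, chr15:85947901-85948000: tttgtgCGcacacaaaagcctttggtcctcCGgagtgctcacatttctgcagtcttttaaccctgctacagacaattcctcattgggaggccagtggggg
Celsr1 exon 1, chr15:86030201-86030300: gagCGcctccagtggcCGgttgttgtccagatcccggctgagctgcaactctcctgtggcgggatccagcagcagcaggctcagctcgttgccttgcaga
Celsr1 intron 1, chr15:86029801-86029900: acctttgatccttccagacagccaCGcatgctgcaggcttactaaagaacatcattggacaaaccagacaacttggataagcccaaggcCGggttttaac
Celsr2 exon 29, chr3:108394201-108394300: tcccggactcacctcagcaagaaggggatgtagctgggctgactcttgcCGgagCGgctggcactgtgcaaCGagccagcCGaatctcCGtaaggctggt
Vangl1 upstream, chr3:102208901-102209000: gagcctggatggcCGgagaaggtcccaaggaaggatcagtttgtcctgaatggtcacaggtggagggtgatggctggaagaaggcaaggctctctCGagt

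The libraries held 68126469 to 132488556 calls, a call being 1 read of 1 CpG, in controls and 89179413 to 216223892 in EtOH-exposed samples, and a tile of these genes had a median of 476 calls per library. The libraries were not alike in 2 further measures. At 39343 tiles that were almost free of methylation, the level was 0.672 to 1.52% in controls and 0.26 to 2.54% in EtOH-exposed samples, with the highest values in EtOH-exposed samples 4, 5 and 6. EtOH-exposed samples 1, 2, 3, 9, 12 and 14, at 0.26 to 0.313%, lay below the lowest control. The coverage of fragments with methylated CpGs was expressed as a coefficient relative to the mean of the controls, leaving out the library itself. On this scale 0 is the same dependence on methylation as in those controls, and a lower value is less coverage. The coefficient was -0.234 to 0.375 in controls and -2.88 to 0.106 in EtOH-exposed samples. It was again lowest in samples 4, 5 and 6, followed by sample 14. It was below the lowest control in 13 of the 16 EtOH-exposed libraries, so that this measure moved with the exposure. Values without EtOH-exposed samples 4, 5 and 6, and in the 6 controls and 7 EtOH-exposed samples that formed 1 group by their levels at unmethylated tiles when neighbouring levels could differ by a ratio of up to 1.3, called the libraries grouped with the controls, stand beside the tiles and body levels with an unadjusted p under 0.05. At a ratio of 1.2 these 13 libraries fell into 3 groups, of which 1 held controls 3 to 6 alone, 1 held controls 1 and 2 with EtOH-exposed sample 8, and 1 held the other 6 EtOH-exposed samples. The part of these differences in the results was not tested.

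The analysed promoter tiles of all 10 genes were unmethylated in both conditions. A promoter was taken as the 1000 bp before a transcription start site and the 100 bp after it, and the 21 analysed tiles stood at 0.764 to 1.77% in controls, with a median of 1.17%. The differences between EtOH-exposed and control samples ran from -1.14 to 0.644 percentage points. None of the 21 tiles was called as different, beside 0.21% of the 27164 promoter tiles of all genes at any level. For a call the logistic model had to give a q under 0.01. The levels, weighted by coverage, also had to be 10 or more percentage points apart. At the levels of these 21 tiles a decrease of that size was not possible, so only an increase could have been called. Of all 60562 tiles under 10% in controls 4 were called, 0 of them lower. A single promoter tile, in Prickle1, had a p under 0.05 when each embryo was taken as 1 value, and it moved from 1.53% ± 0.879 (SD, n = 5) in controls to 0.675% ± 0.736 (SD, n = 16) in EtOH-exposed embryos (exact permutation test, two-sided, p = 0.0395). Of the promoter tiles of all genes that were measured in all 22 samples 1.11% had such a p. That tile overlapped between groups, with controls from 0.493 to 2.42% and EtOH-exposed embryos from 0 to 2.42%.

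Promoter levels with 1 value per embryo existed for 4 genes, those with a promoter tile measured in all 22 samples. Celsr1 stood at 0.965% ± 0.527 (SD, n = 6) in controls and 1.06% ± 0.755 (SD, n = 16) in EtOH-exposed embryos. Celsr2, Fzd3 and Dvl1 had means of 0.802 to 0.984% in controls and 0.954 to 1.03% in EtOH-exposed embryos. The differences for the 4 genes lay between -0.03 and 0.22 points, below the SD of the EtOH-exposed embryos in each case, and none had an adjusted p under 0.05 (exact permutation test, Benjamini-Hochberg over 7064 genes, adjusted p = 0.9999 for each). Over all these genes 0% passed this threshold.

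Outside the promoters most unmethylated tiles lay near the start and most methylated tiles farther in. In Vangl1 2 methylated tiles, at 26.3 and 76.7% in controls, lay upstream of the start. The other exceptions were unmethylated tiles at 27927 bp in intron 1 of Celsr1 and, in Celsr3, at 6305 bp in intron 2, between methylated tiles at 3805 and 7805 bp, and at 27905 bp, past the end of the gene. A further 46 tiles were under 10% in controls, with a median of 10 CpGs per tile and a median distance of 347.5 bp from a start site. The 58 tiles at 80% or more held a median of 4 CpGs and lay at a median of 18520 bp from a start site. Only 11 tiles stood between 20 and 80%, with a median of 3 CpGs, and none between 10 and 20%. These ranges are of the coverage-weighted level of the controls. Of these 11, 5 lay in Celsr1, 2 each in Vangl1 and Vangl2, and 1 each in Celsr2 and Fzd6. The spread between embryos followed the level, with a median SD among EtOH-exposed embryos of 0.97 points in promoter tiles, 3.44 in tiles at 80% or more and 9.20 in tiles between 20 and 80%.

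Of the 136 tiles 2 were called, both in Celsr1 and both lower in EtOH-exposed embryos. Over all 114430 tiles, 1.08% were called lower and 0.0516% higher, so the share of called tiles in these genes stood near the background. The balance of directions over all tiles depended on the libraries, with 1240 of 1299 called tiles lower, against 375 of 445 without EtOH-exposed samples 4, 5 and 6, 864 of 1014 in the libraries grouped with the controls and 116 of 406 with the coverage coefficient as a covariate. None of the 105 tiles of the other 9 genes was called. Of these, 56 stood under 10% in controls, where a decrease of 10 points was not possible. Within the range of 20 to 80% in controls, where both calls lay, 2 of 11 member tiles were called beside 10.9% of all tiles in that range. The difference was below 0 in 93 of the 136 tiles and above 0 in 43, with a median of -0.366 points, and below 0 in 56.2% of all tiles, with a median of -0.127. A test that takes the spread between embryos into account, the F test with overdispersion, called none of the 136 tiles and none of all tiles, and neither did limma. At an unadjusted p under 0.05 this test found 6 of the 136 member tiles, all lower in EtOH-exposed embryos, beside 5.77% of all tiles.

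**Figure D1:**
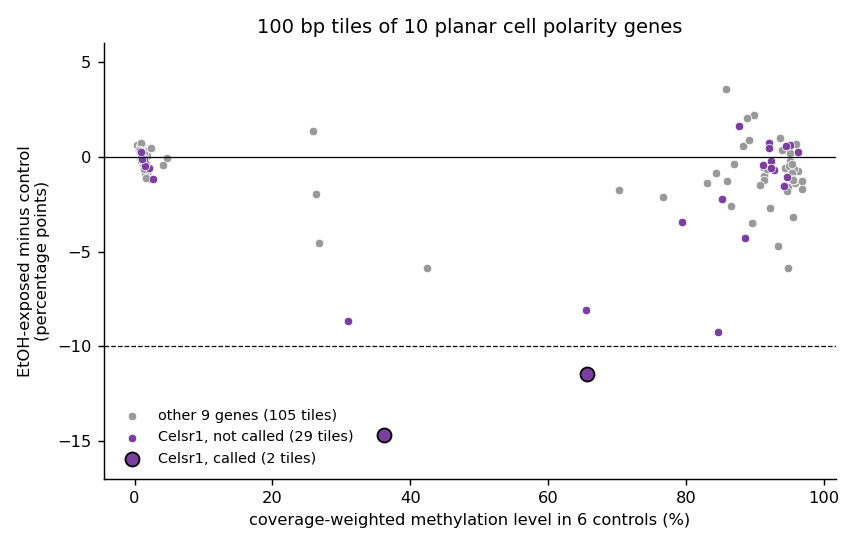
Coverage-weighted methylation level in the 6 controls (x axis, percent) against the difference between EtOH-exposed and control samples (y axis, percentage points) for the 136 tiles, 1 point per tile. The dashed line marks the threshold of 10 points, the 2 called Celsr1 tiles lie under it at -14.7 and -11.5, and tiles near 0 and near 100% lie close to the zero line.

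Celsr1, an atypical cadherin of the core complex, lies on chr15:85898758-86034223 on the minus strand and has 35 exons in its reference transcript. Its 5 promoter tiles stood at 0.768 to 1.46% in controls, and the unmethylated stretch went on into exon 1 as far as 527 bp past the start site. The next analysed tile, at 1527 bp, was at 88.8% ± 2.11 (SD, n = 5) in controls. Of the 26 tiles outside the promoter 20 were methylated at 20% or more, and 20 of the 26 had a lower level in EtOH-exposed embryos. A single tile deep in intron 1, at 27927 bp, was unmethylated in both conditions, at 2.15% ± 1.56 (SD, n = 5) and 1.92% ± 2.24 (SD, n = 16). Thus methylation along Celsr1 was not uniform, and both called tiles lay in dips of the methylated part.

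**Figure D2:**
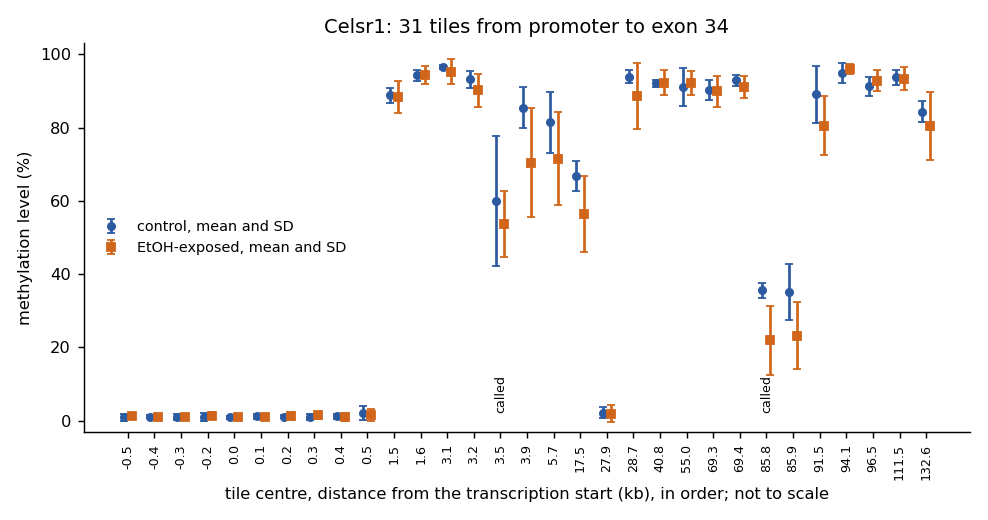
Methylation level (y axis, percent) of the 31 Celsr1 tiles, ordered by distance from the transcription start site (x axis, kb, not to scale), with means and SD over the control and EtOH-exposed embryos that have a value. The tiles up to 0.5 kb stand near 1%, most others at 80% or more, and the called tiles at 3.5 and 85.8 kb lie in dips.

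The Celsr1 tile of the largest difference lay in intron 5, at chr15:85947901-85948000, 85827 bp past the start. In the 6 controls it was at 31.9% at the lowest, 35.7% at the median and 37.5% at the highest, and in the 16 EtOH-exposed embryos at 7.49, 22.3 and 39.5%. Of the EtOH-exposed embryos 13 lay below the lowest control, while samples 7, 10 and 12, at 33.1, 37.1 and 39.5%, lay within or above the range of the controls. The mean fell from 35.6% ± 1.996 (SD, n = 6) to 21.9% ± 9.43 (SD, n = 16), a difference larger than the spread in either group (exact permutation test, two-sided, unadjusted p = 0.00279). Weighted by coverage, the difference was -14.7 points (logistic q = 2.6e-26), with 72 to 681 calls per library, and the F test with overdispersion gave an unadjusted p of 0.0142 that was not below the threshold after adjustment over all tiles (q = 0.843).

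EtOH-exposed samples 4, 5 and 6, at 13.8, 7.49 and 11.6%, were among the 5 lowest at this Celsr1 tile, together with samples 8 and 16. Without these 3 libraries the difference of the means was -11.1 points (exact permutation test, p = 0.00722, 6 against 13). Among the 13 libraries of the group that holds the controls it was -11.9 points (exact permutation test, p = 0.0117, 6 against 7). With the coverage coefficient as a covariate the fitted difference was -4.61 points and the tile was no longer called.

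The tile next to it, chr15:85947801-85947900, was not called but showed the same direction, and it is described here because of that place and value. In the controls its lowest, median and highest levels were 25.1, 38.0 and 43.3%, and in the EtOH-exposed embryos 10.9, 20.4 and 40.8%. There were 10 EtOH-exposed embryos below the lowest control, and the mean fell from 35.1% ± 7.55 (SD, n = 6) to 23.2% ± 9.20 (SD, n = 16) (exact permutation test, p = 0.0115). The difference was -9.37 points without EtOH-exposed samples 4, 5 and 6 (exact permutation test, p = 0.0330) and -9.17 points in the libraries grouped with the controls (exact permutation test, p = 0.0705). The 2 Celsr1 tiles are not separate measurements, since their CpGs lie between, or at, CCGG sites 90 bp apart and thus mostly come from the same reads.

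All 5 CpGs of this stretch of Celsr1 intron 5 with a value in at least 5 samples of each condition had a lower mean in EtOH-exposed embryos. From the 5′ end of the top strand, the first, in a cut site at position 41 of the neighbouring tile, went from 34.1% ± 10.6 (SD, n = 5) to 26.5% ± 16.8 (SD, n = 16), a difference within the spread (exact permutation test, p = 0.364). The 3 CpGs between the cut sites had differences of -14.5, -15.3 and -12.2 points (exact permutation tests, p = 0.00145, 0.00221 and 0.012). The last, in the cut site at position 31 of the called tile, went from 31.5% ± 2.22 (SD, n = 6) to 16.2% ± 8.70 (SD, n = 16), a difference of -15.3 points (exact permutation test, p = 0.00063). The difference was thus past an unadjusted p of 0.05 at the CpGs inside the fragment and at the last CpG, and not at the first. At these 4 CpGs it was -9.50 to -12.8 points without EtOH-exposed samples 4, 5 and 6 (exact permutation tests, p = 0.00206 to 0.0303) and -11.1 to -14.03 points in the libraries grouped with the controls (exact permutation tests, p = 0.0105 to 0.021). The neighbouring tile held 2 further CpGs, at positions 6 and 28, in 4 controls and 14 EtOH-exposed embryos. With only the CpGs that had a value in all 22 samples, a choice made after the values were seen, this neighbour was called as well, at -14.8 points by coverage weight (logistic q = 6.51e-28), and its mean went from 37.9% ± 3.36 (SD, n = 6) to 23.0% ± 9.46 (SD, n = 16) (exact permutation test, p = 0.00165). The called tile holds the same 2 CpGs in every library.

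The second called Celsr1 tile lay in the coding part of exon 1, at chr15:86030201-86030300, 3527 bp past the start. In the controls its lowest, median and highest levels were 30.4, 66.7 and 76.9%, and in the EtOH-exposed embryos 38.0, 54.3 and 71.3%. All 16 EtOH-exposed embryos lay inside the range of the controls, in which samples 1 and 2, at 47.1 and 30.4%, stood low. The means, 59.9% ± 17.7 (SD, n = 6) and 53.6% ± 9.05 (SD, n = 16), differed by less than the spread between embryos (exact permutation test, p = 0.276). The weighted difference was -11.5 points (logistic q = 1.39e-11), beside -6.32 points for unweighted means, which is under the threshold for a call. Control 2 had 46 calls, the fewest of the libraries, which had up to 519. Among the 13 libraries grouped with the controls the difference of the means was -1.60 points (exact permutation test, p = 0.841), and without control 6 the weighted difference was -9.24 points and the tile was not called.

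This exon 1 tile of Celsr1 did not hold the same CpGs in every library. Only those at positions 4 and 17 had a value in all 22 samples. The CpG at position 35, in a further cut site, had one in 4 controls and 15 EtOH-exposed embryos, and those at positions 60 and 87, with control means of 90.2 and 82.04%, in 4 controls and 8 EtOH-exposed embryos. From the CpGs at positions 4 and 17 alone, the weighted difference was -6.59 points (logistic q = 0.0108) and the tile was not called, and the level went from 50.9% ± 12.7 (SD, n = 6) in controls to 46.9% ± 8.51 (SD, n = 16) in EtOH-exposed embryos (exact permutation test, p = 0.397). The CpG at position 17, in a cut site, stood at 59.3% ± 14.3 (SD, n = 6) in controls and 48.4% ± 10.4 (SD, n = 16) in EtOH-exposed embryos (exact permutation test, p = 0.0647). At position 4, outside a cut site, the levels were 43.6% ± 14.2 (SD, n = 6) and 45.8% ± 8.51 (SD, n = 16), with a difference of 2.25 points (exact permutation test, p = 0.649). On the bottom strand alone, the cut site CpG of this Celsr1 tile differed by -12.8 points (exact permutation test, p = 0.0332). With both strands summed, neither of these 2 CpGs had a p under 0.05.

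**Figure D3:**
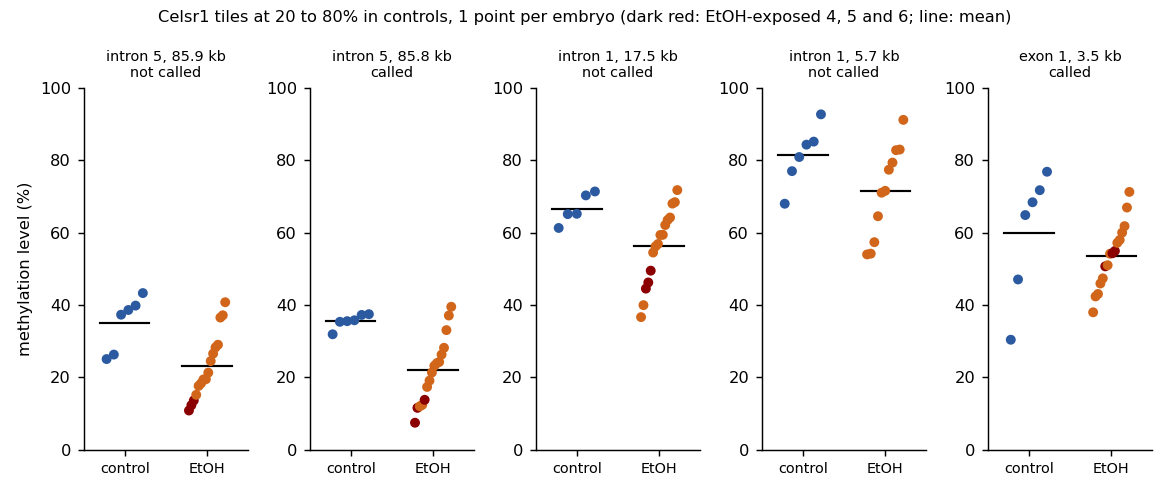
Methylation level (y axis, percent) of the 5 Celsr1 tiles between 20 and 80% in controls, 1 point per embryo with a value and a line at each group's mean; dark red points are EtOH-exposed samples 4, 5 and 6. The controls of the called intron 5 tile sit between 31.9 and 37.5% with most EtOH-exposed embryos below them, while in the called exon 1 tile the EtOH-exposed embryos sit inside the range of the controls.

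The other Celsr1 tiles of intermediate level were in intron 1 and were not called. At 17527 bp the level was 66.7% ± 4.15 (SD, n = 5) in controls and 56.4% ± 10.4 (SD, n = 16) in EtOH-exposed embryos, with 10 embryos below the lowest control (exact permutation test, p = 0.0434). This p was 0.0977 without EtOH-exposed samples 4, 5 and 6 and 0.176 in the libraries grouped with the controls. The cut site CpG of this tile, at position 98, differed by -15.5 points (exact permutation test, p = 0.0245). The other, at position 3, differed by -5.53 points (exact permutation test, p = 0.254). At 5727 bp the level was 81.4% ± 8.37 (SD, n = 6) and 71.5% ± 12.6 (SD, n = 11), which overlapped (exact permutation test, p = 0.11, and p = 0.175 in the libraries grouped with the controls). By coverage weight the controls stood at 79.4% there. The Celsr1 tile of the largest spread, at 3927 bp in intron 1, ran from 76.3 to 90.2% in 5 controls and from 34.6 to 92.1% in 13 EtOH-exposed embryos. Its lowest value came from EtOH-exposed sample 14, and 8 of the 13 embryos lay below the lowest control (exact permutation test, p = 0.0426, difference of the means -15.1 points). Without EtOH-exposed samples 4, 5 and 6 the p of this tile was 0.102, and in the libraries grouped with the controls it was 0.113. Its cut site CpG, at position 90, differed by -25.5 points and that at position 25 by -9.30 (exact permutation tests, p = 0.0373 and 0.0898).

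A body level was taken for each embryo as the mean over the tiles outside the promoter measured in all 22 samples, which were 9 for Celsr1. Of the 10 genes Celsr1 had the lowest difference in this body level. By the median over all analysed tiles outside the promoter Celsr1 differed by -0.594 points. By that measure Vangl2 (-0.629), Prickle2 (-0.613), Celsr2 (-0.599) and Fzd6 (-0.598) were lower, and the rest were higher. In the controls the Celsr1 body level was 61.7% at the lowest, 66.9% at the median and 67.4% at the highest, and in the EtOH-exposed embryos 54.0, 61.7 and 67.5%. There were 8 EtOH-exposed embryos under the range of the controls and 1 over it. The mean went from 65.4% ± 2.56 (SD, n = 6) to 61.1% ± 3.83 (SD, n = 16), and the difference of -4.33 points had an unadjusted p of 0.0204 (exact permutation test, two-sided), which did not hold after adjustment over 10687 genes (Benjamini-Hochberg, adjusted p = 0.686). No gene of the 10687 passed an adjusted p of 0.05, a background of 0%, and 6.04% were lower at an unadjusted p under 0.05. Celsr1 stood at the 4.78th percentile of the differences of all genes, whose median was -0.07 points.

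The Celsr1 body level drew most of its difference from the intron 5 stretch. Without the 2 intron 5 tiles, a choice made after the values were seen, the levels were 74.0% ± 2.37 (SD, n = 6) and 72.1% ± 2.99 (SD, n = 16), with a difference of -1.92 points (exact permutation test, p = 0.174). Without the called exon 1 tile as well, the remaining 6 tiles differed by -1.18 points (exact permutation test, p = 0.34). With all 9 tiles, the difference was -3.05 points without EtOH-exposed samples 4, 5 and 6 (exact permutation test, p = 0.0422), -2.31 points in the 13 libraries grouped with the controls (exact permutation test, p = 0.119) and -0.861 points for residuals after the coverage coefficient (exact permutation test, p = 0.436). From only the CpGs with a value in all 22 samples it was -5.81 points (exact permutation test, p = 0.0136, adjusted p = 0.548). The residuals after the coverage coefficient came from a fit on the coefficient alone, without the exposure. Since the coefficient moved with the exposure, that fit can take up part of a difference between conditions.

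Celsr2 and Celsr3, the other Celsr cadherins, of which Celsr3 is known for axon tracts of the forebrain, had body levels close to those of controls. The Celsr2 body level, over 7 tiles, ran from 53.5 to 55.9% in controls with a median of 54.2% and from 51.5 to 54.5% in EtOH-exposed embryos with a median of 54.0%. The groups overlapped, and the difference was -0.66 points (exact permutation test, p = 0.103, adjusted p = 0.886 over all genes). Celsr3, also over 7 tiles, stood at 38.9% ± 1.14 (SD, n = 6) in controls and 38.3% ± 1.10 (SD, n = 16) in EtOH-exposed embryos, which is within the spread (exact permutation test, p = 0.269).

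In Celsr2 the widest spread lay in the coding part of exon 29, at chr3:108394201-108394300. Controls ran from 91.9 to 94.6% with a median of 93.0%, and the 13 EtOH-exposed embryos with a value from 50.0 to 95% with a median of 84.1%. There were 9 embryos below the lowest control, and the difference of the means was -12.1 points (exact permutation test, p = 0.0426), while the weighted difference was -4.73 points, under the threshold for a call. The CpG in the cut site at position 50 differed by -20.5 points (exact permutation test, p = 0.0123). Those at positions 55, 72, 81 and 89 differed by -9.35 to -12.6 points (exact permutation tests, p = 0.0743 to 0.143). The lowest level of the tile, 50.0%, came from sample 14. Its neighbour in intron 28, chr3:108394301-108394400, went from 94.2% ± 4.58 (SD, n = 6) to 83.5% ± 10.7 (SD, n = 11), with 4 embryos below the lowest control (exact permutation test, p = 0.0299), and a fragment between cut sites 97 bp apart spans both Celsr2 tiles. The differences without EtOH-exposed samples 4, 5 and 6 were -13.3 points in exon 29 and -9.33 in intron 28 (exact permutation tests, p = 0.0247 and 0.0436), and in the libraries grouped with the controls -12.9 and -12.7 points (exact permutation tests, p = 0.00216 and 0.0368). Leaving out samples 4, 5 and 6 kept 12 of the 13 embryos with a value in exon 29, sample 14 among them, and 10 of the 11 in intron 28. In Celsr3 the widest spread, at 9705 bp in intron 9, was 85.6% ± 3.35 (SD, n = 5) against 76.3% ± 22.04 (SD, n = 6), which overlapped (exact permutation test, p = 0.584).

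Vangl1 and Vangl2, membrane proteins of the core complex whose loss is known to disturb neural tube closure, differed in what was measured, with 3 of 11 Vangl1 tiles and 5 of 10 Vangl2 tiles at 20% or more in controls. Their body levels rested on 5 and 2 unmethylated tiles and stood at 1.01% ± 0.635 and 1.69% ± 0.821 (SD, n = 6 each) in controls, and at 0.9996% ± 0.831 and 1.02% ± 1.04 (SD, n = 16 each) in EtOH-exposed embryos. Both groups overlapped. For Vangl2 the difference of -0.675 points (exact permutation test, p = 0.17) was -1.10 points without EtOH-exposed samples 4, 5 and 6 (exact permutation test, p = 0.000848, adjusted p = 0.425 over all genes) and -0.873 points in the libraries grouped with the controls (exact permutation test, p = 0.0251, adjusted p = 0.832). These levels are close to those of the libraries at unmethylated tiles, where EtOH-exposed samples 1, 2, 3, 9, 12 and 14 lay below every control. Those samples stay in the first subset, in which 9.76% of all genes were lower at an unadjusted p under 0.05. The methylated Vangl1 tile at chr3:102208901-102209000, at -4257 bp from the start, was at 79.1% ± 6.02 (SD, n = 5) in controls and 66.8% ± 12.3 (SD, n = 15) in EtOH-exposed embryos (exact permutation test, p = 0.0471), with 10 embryos below the lowest control. The difference of the means, -12.3 points, was -10.1 points without EtOH-exposed samples 4, 5 and 6 and no longer passed (exact permutation test, p = 0.0755), and -12.5 points in the libraries grouped with the controls (exact permutation test, p = 0.0114). Its weighted difference was -2.10 points, and 1.27 points with the coverage coefficient as a covariate. Of its 2 CpGs, the one in the cut site, at position 14, went from 79.9% ± 8.32 (SD, n = 5) to 55.3% ± 24.4 (SD, n = 15), while the one at position 96 stood at 78.9% ± 8.88 (SD, n = 5) and 78.4% ± 7.68 (SD, n = 15). In Vangl2 the tile of the smallest logistic p, in the untranslated part of exon 8, was at 41.1% ± 4.09 (SD, n = 5) and 35.9% ± 9.18 (SD, n = 15), which overlapped (exact permutation test, p = 0.24). Its weighted difference went from -5.87 to 0.358 points with that covariate. The Vangl2 tile of the largest spread, 12345 bp into intron 1, ran from 59.9 to 77.7% in controls and from 29.2 to 85.7% in 13 EtOH-exposed embryos (exact permutation test, p = 0.619).

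Fzd3 and Fzd6, the Frizzled receptors of the group, had 1 tile each for the body level. For Fzd3 it lay near the start and had 0.912% ± 0.563 (SD, n = 6) in controls against 1.07% ± 1.02 (SD, n = 16). For Fzd6 it was a methylated exon tile with 94.9% ± 1.77 (SD, n = 6) in controls against 95.2% ± 3.01 (SD, n = 16), and a difference of 0.31 points (exact permutation test, p = 0.817). The Fzd6 tile at 717 bp in intron 1, one of the few at intermediate level, ran from 22.8 to 32.4% in 5 controls with a median of 29.7% and from 13.5 to 33.8% in 16 EtOH-exposed embryos with a median of 21.3%. There 9 embryos lay below the lowest control (exact permutation test, p = 0.0433), and the weighted difference of -4.58 points was under the threshold for a call and went to 0.0031 points with the coverage coefficient as a covariate. The difference of the means, -5.33 points, was -4.34 points without EtOH-exposed samples 4, 5 and 6 and -3.07 points in the libraries grouped with the controls, and passed in neither (exact permutation tests, p = 0.0924 and 0.313). Its CpG in a cut site, at position 78, differed by -10.98 points (exact permutation test, p = 0.0277), and those at positions 72 and 74 by -5.49 and -0.872 points. In Fzd3 the methylated tile in coding exon 4 was at 96.4% ± 2.85 (SD, n = 6) and 91.4% ± 6.70 (SD, n = 14), which overlapped (exact permutation test, p = 0.096).

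Dvl1, a Dishevelled protein that carries the signal inside the cell, was measured in 5 tiles. Its body level, over 2 unmethylated tiles, was 1.08% ± 0.947 (SD, n = 6) and 1.22% ± 1.01 (SD, n = 16). The widest spread, in coding exon 5, was 95.7% ± 1.47 (SD, n = 5) in controls against 94.7% ± 2.09 (SD, n = 14), which overlapped (exact permutation test, p = 0.372). In Dvl1, Celsr3, Vangl1, Fzd3, Fzd6, Prickle1 and Prickle2 the tile of the smallest logistic p was an unmethylated one. It differed by -1.17 points in Fzd6 to 0.599 points in Dvl1 by coverage weight, and the exact permutation tests over embryos gave p from 0.0395 in Prickle1 to 0.949 in Fzd3. For the Prickle1 tile p was 0.00373 without EtOH-exposed samples 4, 5 and 6 and 0.0644 in the libraries grouped with the controls (exact permutation tests). This tile, too, lies near the level of the libraries at unmethylated tiles, and the first subset keeps the libraries that are lowest there.

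Prickle1 and Prickle2, cytoplasmic partners of the Vangl proteins, differed in what could be measured. The Prickle1 body level, over 3 methylated tiles, was 95.05% at the lowest, 95.6% at the median and 96.2% at the highest in controls, and 89.8, 94.1 and 96.7% in EtOH-exposed embryos. Of these, 11 lay below the lowest control. The difference of -1.42 points, from 95.6% ± 0.412 (SD, n = 6) to 94.2% ± 1.52 (SD, n = 16), had an unadjusted p of 0.035 (exact permutation test) and an adjusted p of 0.734 over all genes. For residuals after the coverage coefficient, from the fit without the exposure, it was -0.367 points. It was -1.08 points without EtOH-exposed samples 4, 5 and 6, and -1.26 points in the libraries grouped with the controls (exact permutation tests, p = 0.0266 and 0.0186). Within each of the 3 tiles the difference was lower in cut sites, at -2.34 to -3.77 points, than elsewhere, at -0.719 to -1.91. The Prickle1 tile of the largest spread, in the 3′ UTR within exon 8, was at 94.6% ± 1.14 (SD, n = 6) in controls and 92.1% ± 4.29 (SD, n = 16) in EtOH-exposed embryos, which overlapped (exact permutation test, p = 0.188). Another, in the coding part of exon 8 at 18570 bp, went from 96.6% ± 1.19 (SD, n = 6) to 95.5% ± 1.07 (SD, n = 16), with 4 embryos below the lowest control (exact permutation test, p = 0.0396). The corresponding p were 0.0123 without EtOH-exposed samples 4, 5 and 6 and 0.0291 in the libraries grouped with the controls (exact permutation tests). In this tile the cut site CpG at position 100 went from 97.6% ± 2.09 (SD, n = 6) to 92.6% ± 3.21 (SD, n = 16). The one at position 16 stood at 96.4% in both groups. The body level of Prickle2, over 2 unmethylated tiles, was 1.31% ± 0.865 (SD, n = 6) and 1.23% ± 0.891 (SD, n = 16). Its tile of the largest spread, in intron 2, was higher by 3.59 points in 5 EtOH-exposed embryos than in 5 controls by coverage weight and overlapped (exact permutation test, p = 0.23).

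**Figure D4:**
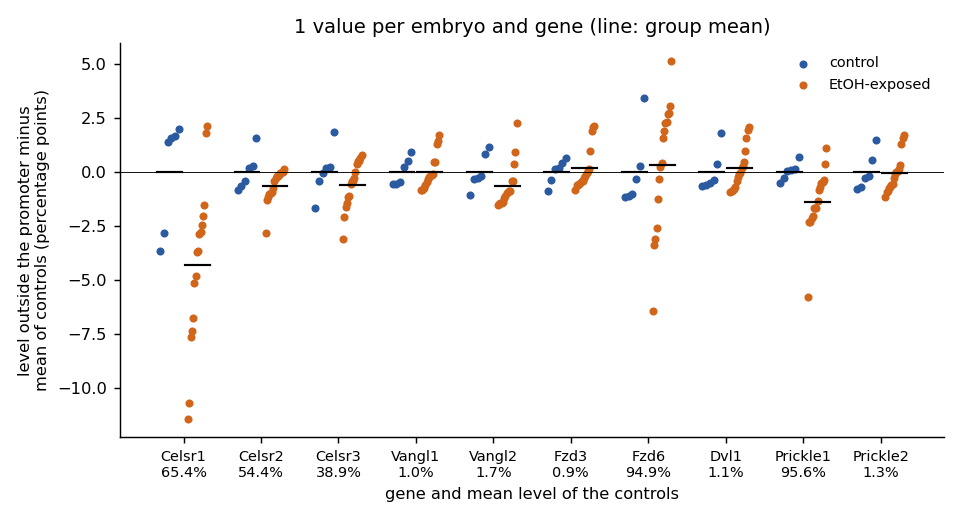
Level outside the promoter minus the mean of the controls (y axis, percentage points) for each of the 10 genes (x axis, with the mean level of the controls), 1 point per embryo and a line at each group's mean. Celsr1 has the largest mean difference of the 10, -4.33 points, Prickle1 follows with -1.42, and the others lie between -0.68 and 0.31.

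Celsr1 was then set against each of the other 9 genes within the same embryos. The difference between conditions in the Celsr1 body level minus that of the other gene ran from -2.91 points against Prickle1 to -4.64 points against Fzd6. Of the 9 comparisons, none of them adjusted for their number, 7 had an unadjusted p under 0.05 (exact permutation tests, p = 0.0162 to 0.043), and those against Vangl2 and Prickle1 did not (exact permutation tests, p = 0.0754 and 0.0624). The comparisons share the Celsr1 values and are not independent, and 5 of the other genes have body levels of 0.912 to 1.69% in controls, where no large decrease was possible. The Celsr1 body level also holds both called tiles and the intron 5 neighbour, which stood between 20 and 80% in controls. No tile in the other body levels did. Over all tiles the median difference was -3.38 points in that range and -0.717 at 80% or more. The part of the tile levels in these comparisons was not tested. Without EtOH-exposed samples 4, 5 and 6 the difference against Fzd6 was the only one of the 7 that kept a p under 0.05. In the libraries grouped with the controls none of the 9 had one (exact permutation tests, p = 0.0559 to 0.393). Celsr1 was named by the study, among other example genes, on these same samples, so its place at the head of the 10 genes is not independent evidence.

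The spread between embryos of the body levels, measured as the mean absolute deviation from the group median, did not pass the test in any of the 10 genes. It was 1.72 points in controls and 2.88 in EtOH-exposed embryos for Celsr1 (exact permutation test, p = 0.335, and p = 0.71 without EtOH-exposed samples 4, 5 and 6) and 0.284 and 1.05 for Prickle1 (exact permutation test, p = 0.0838). Over all 10687 genes, 4.52% had a larger spread in EtOH-exposed embryos at an unadjusted p under 0.05. For single tiles of the 10 genes the spread was not tested. Their median SD was 9.20 points in EtOH-exposed embryos and 6.02 in controls in tiles between 20 and 80%. At 80% or more it was 3.44 and 1.93 points.

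Within methylated tiles the lower levels were larger at the CpGs of cut sites. Of the 136 tiles, 60 stood at 20% or more in controls and held both a CpG in CCGG and a CpG outside it with enough samples. In 46 of these 60, or 76.7%, the difference between conditions was lower at the CCGG CpG, and the median difference was -3.76 points at CCGG CpGs and -0.727 at the others. The same held over all 39093 such tiles, of which 75.7% had a lower difference at the CCGG CpG, with medians of -3.17 and -0.939 points. The pattern was thus not particular to these genes, and it stood in 14 of 19 Celsr1 tiles and 32 of 41 tiles of the other genes. When CpGs of CCGG sites were left out, 111 member tiles remained and none was called, beside 0.586% of all tiles. Neither of the 2 called Celsr1 tiles could be tested in this way, since a single CpG remained in the intron 5 tile and only 4 controls kept 2 CpGs in the exon 1 tile. The Celsr1 body level without CCGG CpGs differed by -2.81 points (exact permutation test, p = 0.0427, adjusted p = 0.999), by -1.74 points without EtOH-exposed samples 4, 5 and 6 (exact permutation test, p = 0.0656) and by -1.49 points in the libraries grouped with the controls (exact permutation test, p = 0.0956). The protocol in the labels fills in the ends of the cut fragments, and its part in these values was not tested.

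**Figure D5:**
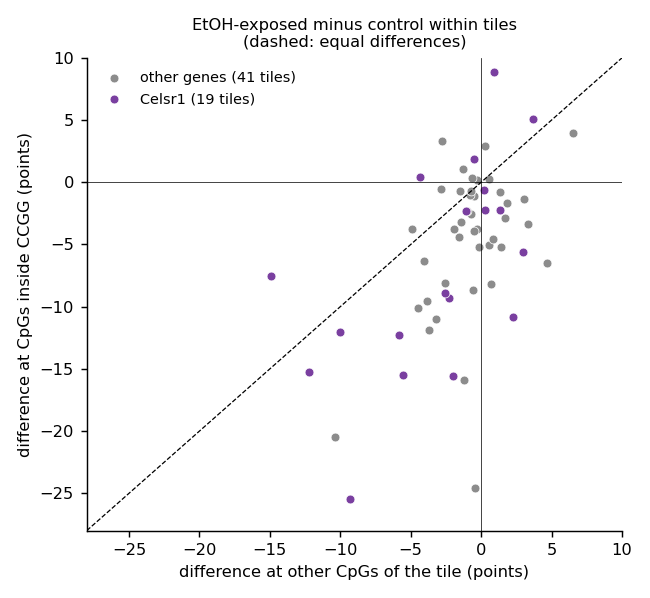
Difference between EtOH-exposed and control embryos at CpGs outside CCGG (x axis, percentage points) against that at CpGs inside CCGG (y axis, percentage points) for the 60 member tiles at 20% or more in controls, 1 point per tile. In 46 tiles the point lies below the dashed line of equal differences, and the lowest point, at -25.5, is the Celsr1 intron 1 tile at 3927 bp.

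A list of 31 other genes of planar cell polarity and its Wnt inputs, among them Dvl2, Dvl3, Scrib, Ptk7, Ror1, Ror2, Wnt5a, Fat4 and Dchs1, had 292 analysed tiles. Of these 4 were called lower and 0 higher, where 1.08% of all tiles were called lower and 0.0516% higher, and the median difference was -0.03 points, beside the medians of -0.366 for the 10 genes and -0.127 for all tiles. The called tiles were 2 in Ptk7 and 1 each in Ror1 and Ror2, which encode receptor-like proteins of the pathway. The lowest coverage-weighted difference, -12.4 points, was in intron 1 of Ptk7 at chr17:46617501-46617600, where the mean went from 37.4% ± 6.22 (SD, n = 6) to 26.0% ± 11.2 (SD, n = 16), with 10 embryos below the lowest control (exact permutation test, p = 0.0304). In exon 7 of Ror1 the called tile went from 47.8% ± 4.63 (SD, n = 6) to 33.8% ± 11.3 (SD, n = 16) (exact permutation test, p = 0.00993), and in intron 1 of Ror2 from 59.4% ± 3.03 (SD, n = 5) to 48.5% ± 11.6 (SD, n = 15) (exact permutation test, p = 0.0562). Without EtOH-exposed samples 4, 5 and 6 these differences were -9.74 points in Ptk7, -11.2 in Ror1 and -7.998 in Ror2 (exact permutation tests, p = 0.0788, 0.0289 and 0.126), and in the libraries grouped with the controls -11.6, -13.1 and -7.97 points (exact permutation tests, p = 0.0268, 0.0128 and 0.0476). In the second Ptk7 tile, at chr17:46594901-46595000, controls stood at 26.5% ± 10.5 (SD, n = 5) and EtOH-exposed embryos at 21.5% ± 10.02 (SD, n = 15), a difference of -4.94 points within the spread (exact permutation test, p = 0.358), which was -2.45 points without samples 4, 5 and 6 (exact permutation test, p = 0.649) and -3.58 points in the libraries grouped with the controls (exact permutation test, p = 0.509). All 4 stood between 20 and 80% in controls, the range in which both called Celsr1 tiles lay. Of these genes 24 had a body level, and 5 were lower at an unadjusted p under 0.05 and 0 higher, with no adjusted p under 0.05 over all genes. Over all genes with a body level 6.04% were lower and 0.328% higher at this unadjusted p. The difference was -4.05 points in Ror1 (exact permutation test, p = 0.00986), -2.48 in Ptk7 (p = 0.0135), -1.06 in Ror2 (p = 0.0497), -6.75 in Grhl3 (p = 0.0422) and -3.90 in Prickle4 (p = 0.0425, each by the same exact permutation test). Dchs1, a large cadherin of the Fat pathway, had -7.46 points with a wide spread (exact permutation test, p = 0.0646). The difference without EtOH-exposed samples 4, 5 and 6 was -4.39 points in Dchs1 and -5.03 in Grhl3 (exact permutation tests, p = 0.166 and 0.111), and in the libraries grouped with the controls -0.548 and -3.89 points (exact permutation tests, p = 0.809 and 0.192). Those of Ror1, Ptk7 and Prickle4 kept an unadjusted p under 0.05 in both subsets, and that of Ror2 in neither. Without samples 4, 5 and 6 the count was 4 lower, with Fat4 as the fourth, and 0 higher, beside 9.76% lower and 0.356% higher over all genes. In the libraries grouped with the controls it was 3 lower and 1 higher, which was Wnt5a, beside 2.92% lower and 2.6% higher. The body levels of these genes are named after their values were seen.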

How the data were processed

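Reduced representation bisulfite sequencing of 6 control and 16 EtOH-exposed E10.5 forebrains was analysed. Per the labels and methods, the authors trimmed paired reads with Trim Galore 0.3.3 and aligned them to mm10, which is GRCm38, with BSMAP 2.90. The deposited tables give, for each strand of a CpG, a read count (coverage) and the percent of reads with a methylated cytosine, as made by the authors, without pooling of replicates.

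Methylated reads were recovered from both columns, strands with at least 10 reads were summed, and 100 bp tiles on chromosomes 1 to 19 were tested by logistic regression with Benjamini-Hochberg adjustment over all 114430 tiles (Python 3.11.15, scipy 1.17.1). The F test scales the same model by its overdispersion, and limma 3.58.1 in R 4.3.3 was run on log2 odds of methylation (pseudocount 0.5). Single tiles, CpGs and gene levels were tested by two-sided exact permutation over embryos (74613 arrangements for 6 against 16, smallest p 1.34e-05). Gene levels are unweighted means over tiles measured in all 22 samples, adjusted over all genes with a value. Reads were counted without molecular identifiers, so counting errors cover reads and not molecules. The code was tested on simulated data. No libraries were near-copies of each other.

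Named tiles were, for each gene, up to 3 called tiles or else the tile of the smallest logistic p, the best covered promoter tile and the tile outside the promoter of the largest SD among EtOH-exposed embryos. Further tiles (in Celsr1 the intron 5 neighbour, the tiles at 1527, 5727, 17527 and 27927 bp, Celsr2 intron 28, Prickle1 exon 8 at 18570 bp) and the CCGG comparison were chosen after their values were seen. So were the tests with only CpGs that have a value in all 22 samples. In subsets of the libraries, the exact tests of tiles, of CpGs, of the Celsr1 body level without CCGG CpGs and of the other genes of the pathway were chosen then too. The same holds for the comparisons of Celsr1 with other genes in the libraries grouped with the controls. The genes and lists were chosen with earlier results of these data known. Alternatives to the read, CpG and sample minima, the weighting, the test, the covariates, the transcripts used and the libraries kept were run. Chromosomes X and Y were not analysed here.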

Additional observations from a re-analysis of the deposited data

Results flagged for a closer look

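Of 42 sets of control values tested for a sample far from the others (Dixon's gap over range, at its 95% limit), 6 had one. Chance gives a share of about 5% for independent sets of normally distributed values. These sets are not independent, and most of the flagged values lie near 0, so no excess can be read from the count. At the Celsr2 promoter tile control 6 stood at 1.296%, and the other controls at 0.668 to 0.881%. This tile is the whole of the Celsr2 promoter level, which therefore has the same value of 1.296%. At the Dvl1 promoter tile control 1 stood at 2.34% beside 0 to 0.845% in the others, and the Dvl1 promoter level is again that tile, at 2.34%. At the Dvl1 intron 1 tile 548 bp past the start, control 2 stood at 4.03% beside 0.380 to 1.58%. The Fzd6 body level, a single tile in exon 4, was 98.3% in control 3 beside 93.7 to 95.2%. None of these belonged to Celsr1, and the highest values at unmethylated tiles among controls were those of controls 1 and 2.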

How the results depend on the processing

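The number of called tiles in the 10 genes, 2, depended on the test and the minimum. It was 0 with the F test and with limma, which called no tile at all. It was also 0 with at least 20 percentage points, beside 0.0883% of all tiles, and with at least 3 CpGs per tile, beside 0.654%. Without CCGG CpGs it was 0 beside 0.586%, and with the coverage coefficient as a covariate 0 beside 0.355%. With unweighted means it was 6, all lower, beside 1.71% of all tiles. With at least 3 samples per condition it was 6, beside 2.57% of all tiles. Of these 6, 4 were lower, 3 of them in Celsr1 and 1 in Celsr2. The 2 others were higher, in Prickle2 (11.6 and 11.2 points, in 3 controls and 6 EtOH-exposed samples). The minimum of 3 CpGs or the loss of CCGG CpGs leaves both called Celsr1 tiles untested, the intron 5 tile because it holds 2 CpGs and the exon 1 tile because 4 controls then remain. With only CpGs that have a value in all 22 samples 2 of 35 tiles were called, beside 0.651% of all tiles, and these were both intron 5 tiles of Celsr1, while the exon 1 tile was not called (-6.59). The count stayed 2 with 5 or 20 reads per CpG, beside 1.63 and 0.726% of all tiles, and with tiles measured in all 22 samples, beside 0.585%. It also stayed 2 without EtOH-exposed samples 4, 5 and 6, beside 0.390%. In the libraries grouped with the controls it was 2 as well, beside 0.924%, though 1 of the 2 was another tile. Leaving out 1 library gave 1 to 4 called tiles, with 1 without control 6, beside 1.21% of all tiles, and 4 without EtOH-exposed sample 12, beside 1.59%. The Celsr1 intron 1 tile at 86029801 passed the call without control 3 (-11.7) or EtOH-exposed samples 1 (-11.1), 12 (-11.1) or 16 (-10.4).

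Control and EtOH-exposed libraries share replicate numbers, but same-number libraries did not deviate together (correlations of -0.150 to 0.173, the best match in 1 of 6), so the numbers were not taken as pairs. With the replicate block over the numbers present in both groups, 9 of 113 tiles were called, beside 4.76% of all tiles, and 6 of 113 in the same libraries without it, beside 3.07%. In these libraries the body level of Celsr1 differed by -7.02 points. They hold only EtOH-exposed samples 1 to 6, so this value differs from the main result in the libraries used and is not an effect of the block.

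The comparison of Celsr1 with other genes no longer had a p under 0.05 with deviations averaged over all analysed tiles for Celsr2 (-1.48), Vangl1 (-2.04) and Fzd3 (-2.46), and had one for Prickle1 (-3.03). Without EtOH-exposed samples 4, 5 and 6 it lost this for Celsr2 (-2.36), Celsr3 (-2.59), Vangl1 (-2.70), Fzd3 (-2.78), Dvl1 (-2.80) and Prickle2 (-2.61), and in the libraries grouped with the controls for Celsr2 (-2.07), Celsr3 (-2.12), Vangl1 (-2.28), Fzd3 (-2.32), Fzd6 (-3.49), Dvl1 (-2.48) and Prickle2 (-2.17). Leaving out 1 library moved these values for Celsr2 (-4.72 to -3.17), Celsr3 (-4.83 to -2.996), Dvl1 (-5.57 to -3.90), Fzd3 (-5.30 to -3.88), Prickle1 (-3.59 to -2.41), Prickle2 (-5.29 to -3.66), Vangl1 (-5.16 to -3.73) and Vangl2 (-4.32 to -2.98), each crossing a p of 0.05 in at least 1 omission, and the sign held in all of them.

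Differences that were not called changed sign under some settings, and the cause was not tested. With unweighted means, these changed sign: the difference of the Vangl1 tile at 102204601 (0.191), the Fzd3 tile at 65262001 (0.0246), the Fzd3 tile at 65262401 (0.124), the Fzd6 tile at 39006201 (0.152), the Dvl1 tile at 155847901 (-0.214), the Dvl1 tile at 155847401 (0.224) and the Prickle1 tile at 93595801 (0.131). With the coverage coefficient as a covariate, these changed sign: the difference of the Celsr2 tile at 108415701 (-0.309), the Celsr3 tile at 108835701 (2.91), the Vangl1 tile at 102208901 (1.27), the Vangl2 tile at 172001901 (0.358), the Vangl2 tile at 172014901 (6.81), the Fzd6 tile at 39007001 (0.0031) and the Dvl1 tile at 155847901 (-0.284). Without EtOH-exposed samples 4, 5 and 6, these changed sign: the difference of the Celsr2 tile at 108415701 (-0.0566), the Celsr3 tile at 108835701 (0.564), the Vangl2 tile at 172014901 (3.30) and the Dvl1 tile at 155847901 (-0.0144), the body level difference of Dvl1 (-0.251) and Fzd3 (-0.276), the promoter level difference of Celsr2 (-0.198), Dvl1 (-0.191) and Celsr1 (-0.157) and the difference in spread of Vangl2 (-0.268), Vangl1 (-0.195), Dvl1 (-0.108), Prickle2 (-0.206) and Fzd3 (-0.0682). With 5 reads per CpG, these changed sign: the body level difference of Vangl1 (0.0321), Fzd3 (-1.04) and Fzd6 (-1.07) and the difference in spread of Celsr2 (0.160). With 20 reads per CpG, these changed sign: the difference in spread of Celsr3 (-0.108) and Celsr1 (-0.882). With CCGG CpGs left out, these changed sign: the body level difference of Prickle2 (0.190), the promoter level difference of Fzd3 (0.0025) and the difference in spread of Prickle2 (-0.244). With deviations averaged over all analysed tiles, these changed sign: the body level difference of Dvl1 (-0.135), Fzd3 (-0.978) and Fzd6 (-0.839), the promoter level difference of Celsr2 (-0.133) and the difference in spread of Celsr2 (0.909), Prickle2 (-0.132) and Prickle1 (-0.0526). For residuals after the coverage coefficient, these changed sign: the body level difference of Dvl1 (-0.323), Celsr3 (0.157) and Fzd3 (-0.416), the promoter level difference of Celsr2 (-0.330), Dvl1 (-0.301) and Celsr1 (-0.170) and the difference in spread of Vangl1 (-0.102), Prickle2 (-0.0283), Celsr3 (-0.0389) and Celsr1 (-0.964). With only CpGs that have a value in all 22 samples, these changed sign: the promoter level difference of Fzd3 (0.122) and the difference in spread of Celsr2 (0.0623). With the replicate block, which keeps only EtOH-exposed samples 1 to 6, these changed sign: the body level difference of Vangl1 (0.366) and Prickle2 (0.411) and the promoter level difference of Fzd3 (0.451). In the libraries grouped with the controls, these changed sign: the difference in spread of Vangl2 (-0.333), Vangl1 (-0.320), Dvl1 (-0.265), Prickle2 (-0.343), Celsr3 (-0.230), Fzd3 (-0.103) and Celsr1 (-0.362). With only tiles at 20% or more, these changed sign: the difference in spread of Celsr2 (0.114). When 1 library was left out, these also crossed 0: the tile differences of the Celsr1 tile at 86034101 (-0.190 to 0.00923), the Celsr3 tile at 108835701 (-2.22 to 0.564), the Dvl1 tile at 155847401 (-0.212 to 0.289), the Fzd3 tile at 65262401 (-0.201 to 0.0216), the Fzd6 tile at 39006201 (-0.293 to 0.0481), the Vangl1 tile at 102204601 (-0.348 to 0.118), the Vangl2 tile at 172014901 (-4.05 to 1.41) and the Vangl2 tile at 172027201 (-0.833 to 0.0616), the body level differences of Fzd3 (-0.0286 to 0.277), Fzd6 (-0.00953 to 0.995), Prickle2 (-0.238 to 0.219) and Vangl1 (-0.130 to 0.173), the promoter level differences of Celsr1 (-0.0449 to 0.266) and Fzd3 (-0.155 to 0.0822) and the differences in spread of Celsr2 (-0.254 to 0.148), Celsr3 (-0.00515 to 0.352), Prickle2 (-0.0283 to 0.308), Vangl1 (-0.0212 to 0.235) and Vangl2 (-0.0837 to 0.259). The Celsr1 tile at 86030201 ranged from -13.7 to -9.24 over these omissions. In all, 1594 of 1804 alternatives kept the direction and the side of the threshold of the 62 results. Most of these alternatives left out 1 library, and most of the results were differences that were not called. Such a result counts as kept when it stays not called with the same sign. The 2 calls were lost with the F test, with limma and with the coverage coefficient as a covariate.

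Most CpGs of these genes were outside the fragments read, and tiles with few calls in a library, such as the 46 of control 2 at Celsr1 exon 1, carry a wide counting error.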
